A study of Mus musculus with 33 samples.

Results

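Red pulp macrophages are the resident macrophages of the spleen that engulf old red blood cells and return their iron to the body. Their identity is set by the transcription factor SPI-C, which haem induces, and they are nourished by signals through the CSF1 receptor. They carry the integrins and receptors used to bind blood cells and dying cells, and they make much of the complement component C1q. The liver X receptor LXR-alpha, which senses oxysterols, shapes several splenic macrophage subsets and induces CD5L and MERTK. The 10 genes described here were listed by symbol as such identity genes: Spic (the SPI-C factor), Nr1h3 (LXR-alpha), Csf1r (the CSF1 receptor), Mertk (a receptor tyrosine kinase that binds dying cells), Itgad (integrin alpha D), Vcam1 (an adhesion molecule bound by the integrin VLA-4), Adgre1 (the F4/80 antigen), Treml4 (a surface receptor of the TREM family), Cd5l (a secreted scavenger-receptor protein that aids macrophage survival) and C1qa (a chain of C1q). All 10 were found in the deposited table, each in 1 row, out of 56414 rows of which 36109 had reads.

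RNA came from spleens and lymph nodes of tumour-free female C57Bl/6 mice. The labels describe a fresh extraction, and the study's methods describe tissues held in a stabilising reagent first. In the treated groups the drinking water contained 0.5% NAM (nicotinamide, one of the vitamin B3 compounds) over a period of 1, 3 or 14 days, and control mice were untreated, with 0 days of NAM. The labels give a weekly renewal of the water, and the study's methods give a more frequent change of solutions. No transgene, deletion or other agent is named for any group. The spleen label covered 4 groups of 5 libraries (untreated, 1, 3 and 14 days), and the lymph node label covered untreated (3 libraries), 1-day (2), 3-day (4) and 14-day (4) groups. The labels do not say which organs came from the same mouse or whether replicates were separate mice, so a p-value here measures the spread between libraries. The comparisons asked how the 10 genes differ between the labelled tissues and how they change with days of NAM.

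The tissue labels went against marker genes of the organs. Glycam1, a mucin of lymph node high endothelium, ranged from 108200 to 214200 normalised read counts in the 20 libraries labelled spleen and from 1.585 to 12.38 in the 13 labelled lymph node. Tlx1 and Nkx2-5, transcription factors of spleen mesenchyme, went the other way. Tlx1 lay between 351.1 and 573.5 in the 13 and between 0 and 4.071 in the 20. Nkx2-5 lay between 166.7 and 267 in the 13. It was 0 in all of the 20 (a 0 allows up to 3 expected reads at 95% confidence). Each library is therefore named only by its label. Whole reads numbered 18325061 to 54830743 under the spleen label, with the 3-day libraries deepest at 43632016 to 54830743, and 30424968 to 46733974 for the lymph node label, and every replicate pair differed by more than counting noise over all genes. Under the lymph node label, replicate 1 at 1 day held 73323 normalised counts over 5 pancreas genes, against 14.5 in replicate 2. Among libraries labelled spleen, the first principal component carried 30.07% of the variance and ran from -62.48 in untreated replicate 1 to 74.25 in replicate 2 at 1 day, the libraries with the lowest and the highest adipocyte marker sums (17233 and 221410.0). Replicate 1 at 3 days was the sole 3-day library below 0 on the second principal component, which carried 13.58% of the variance, while all 5 libraries at 1 day and 4 at 3 days lay above 0.

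The positions of the genes are those of mm10. Spic spans 88674774 to 88683026 of chromosome 10, Cd5l 87357879 to 87371074 and Vcam1 116109951 to 116129688 of chromosome 3, and Itgad 128154375 to 128205501 of chromosome 7. Treml4 spans 48264292 to 48275360 and Adgre1 57358686 to 57483529 of chromosome 17, Nr1h3 91184061 to 91195116 and Mertk 128698997 to 128803007 of chromosome 2, and C1qa 136895916 to 136898844 of chromosome 4. Exons of Itgad, Vcam1, Nr1h3 and Csf1r are overlapped by other annotated genes, and since no source used here says whether the counting used strand, reads of such pairs cannot be told apart.

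Promoter windows of RefSeq (GRCm38.p6, 250 bases before to 50 after the start) matched 5 of the 10 genes. The 3 windows printed here, 5' to 3' on the gene's strand, are those of Spic, Cd5l and Treml4, which are among the 5 members that differed most between the labels, and capitals mark the motif GAGGAAG, bound by the Ets factors PU.1 and SPI-C, read on either strand.
Spic, chr10:88682974-88683273, minus strand: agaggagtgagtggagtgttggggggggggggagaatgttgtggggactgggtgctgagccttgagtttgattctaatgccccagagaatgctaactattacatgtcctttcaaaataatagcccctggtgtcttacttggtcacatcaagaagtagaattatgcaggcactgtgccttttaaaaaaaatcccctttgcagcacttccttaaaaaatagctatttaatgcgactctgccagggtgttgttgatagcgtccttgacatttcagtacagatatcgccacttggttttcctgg
Cd5l, chr3:87357631-87357930, plus strand: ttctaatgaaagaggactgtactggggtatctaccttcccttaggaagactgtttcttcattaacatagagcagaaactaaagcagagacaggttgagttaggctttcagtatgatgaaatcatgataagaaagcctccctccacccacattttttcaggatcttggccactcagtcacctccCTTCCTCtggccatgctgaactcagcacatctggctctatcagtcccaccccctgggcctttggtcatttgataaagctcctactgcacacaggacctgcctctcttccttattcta
Treml4, chr17:48264045-48264344, plus strand: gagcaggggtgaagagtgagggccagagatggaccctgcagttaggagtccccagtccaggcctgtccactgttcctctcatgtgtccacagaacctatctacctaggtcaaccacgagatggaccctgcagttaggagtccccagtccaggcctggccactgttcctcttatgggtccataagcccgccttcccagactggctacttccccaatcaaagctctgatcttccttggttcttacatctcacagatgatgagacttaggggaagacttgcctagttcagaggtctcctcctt
The Cd5l window held the motif on the opposite strand, at position -67 from the start, and an Nr1h3 window held it at position 11 after the start. The windows of Spic, Treml4 and Mertk did not hold these letters, and 13.6% of the 32851 windows of all genes did. The exact direct repeat of the LXR half-site AGGTCA, with the spacing LXR prefers, was in no member window used and in 0.0152% of all windows. TGAGTCA (AP-1) and CACGTG (E-box) were in no member window used and in 5.2% and 7.15% of all.

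All 10 genes were higher in untreated libraries labelled lymph node than in those labelled spleen, from 1.84-fold for C1qa to 147-fold for Itgad in the ratio of means, with the 33 libraries put on one scale. Each passed the limma test with Benjamini-Hochberg adjustment over 18581 genes, and in each the groups did not overlap. The background is high: 64% of all genes passed, 31.4% higher under the lymph node label, and the groups did not overlap for 59.8%. The median log2 difference of the 10 genes was 2.48, against 0.0061 over all genes tested. In bulk RNA, fewer macrophages and less RNA per macrophage cannot be told apart, here or below.

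Itgad showed the widest gap. Its normalised counts on the joint scale were 6204, 5450 and 5470 in the 3 untreated libraries labelled lymph node, and 36.6, 40.6, 45.2, 45.3 and 26.9 in the 5 labelled spleen. The log2 difference was 7.18 ± 0.27 (SE; adjusted p = 8.8e-20). Even the lowest of the 13 libraries labelled lymph node, treated ones included, was 58.3 times the highest of the 20 labelled spleen. The secreted protein gene Cd5l gave 6599, 7836 and 6437 against 293, 490, 620, 255 and 336, a log2 difference of 4.20 ± 0.30 (adjusted p = 4.4e-13). Treml4 gave 2440, 2680 and 2415 against 167, 172, 206, 158 and 186, or 3.82 ± 0.17 (adjusted p = 1.1e-17). Over all times, the lowest library labelled lymph node was 7.55 times the highest labelled spleen for Cd5l and 8.85 times for Treml4.

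Spic, the lineage transcription factor, was 9448, 9259.5 and 8460 under the lymph node label and 1283, 1043, 1361, 998 and 997 under the spleen label, a log2 difference of 3.00 ± 0.12 (adjusted p = 1.4e-18). The F4/80 gene Adgre1 differed by a similar 3.02 ± 0.14 (adjusted p = 3.7e-17), from means of 314 ± 53.9 (SD, n = 5) to 2532 ± 176 (SD, n = 3). Mean levels of the adhesion molecule gene Vcam1 were 1874 ± 235 and 7277 ± 300, and those of the receptor gene Mertk 246 ± 25.0 and 903 ± 59.5, with log2 differences of 1.96 ± 0.14 and 1.88 ± 0.12. Differences were smaller for Csf1r (1.55 ± 0.13), Nr1h3 (1.14 ± 0.12) and C1qa (0.89 ± 0.12). Csf1r spans 61105571 to 61132149 of chromosome 18 in mm10, and its row also names the microRNA gene Mir6983. Nr1h3 had the narrowest separation over all libraries, where the lowest library labelled lymph node was 1.41 times the highest labelled spleen.

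**Figure D1:**
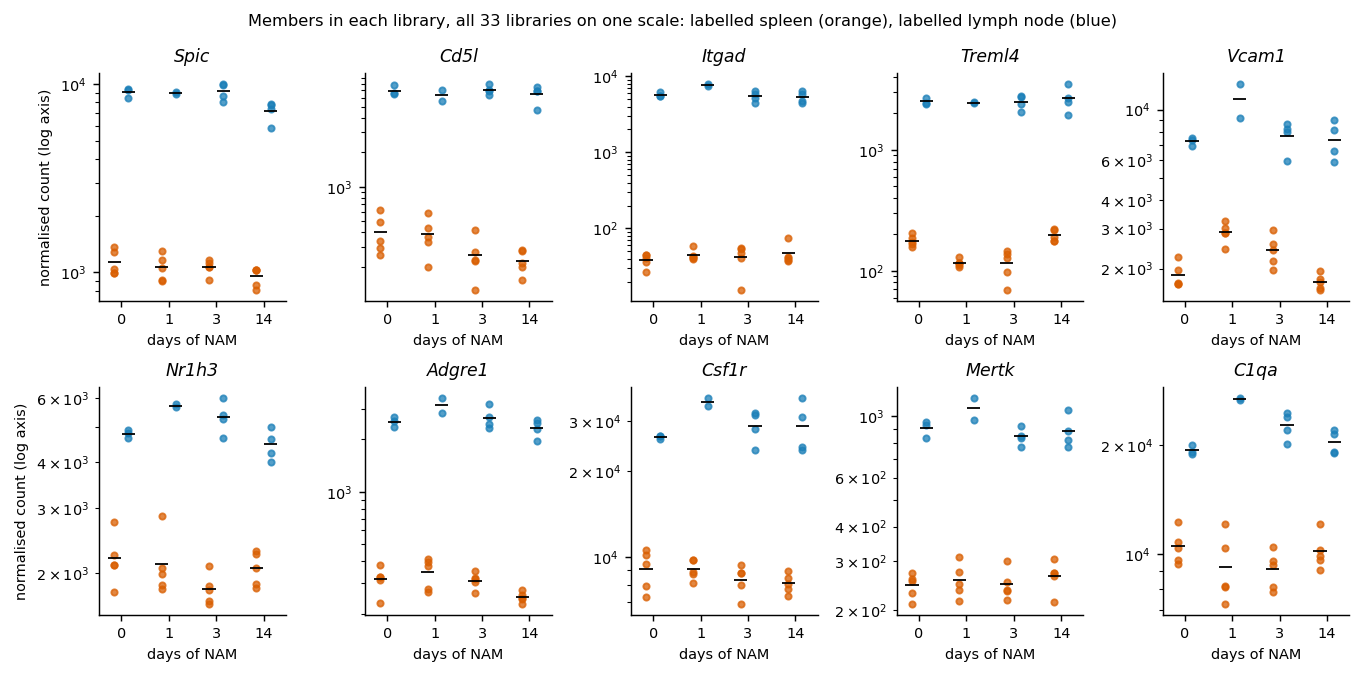
Normalised counts of the 10 genes in each of the 33 libraries on one joint scale (log axes), by days of NAM; points are libraries, black lines group means, orange the libraries labelled spleen and blue those labelled lymph node. In every panel the blue points lie above all orange points, with the widest gap for Itgad.

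Per kilobase of merged GENCODE M21 exon, C1qa was the most abundant of the 10 under both labels, at 18618 ± 531 normalised counts per kb (SD, n = 3) under the lymph node label and 10114 ± 1111 (n = 5) under the spleen label. The lengths the authors counted on are not given, so these are approximate levels. Under the lymph node label the order continued with Csf1r (4559), Cd5l (3417), Spic (2358), Nr1h3 (1906), Itgad (1266), Treml4 (1258), Vcam1 (820), Adgre1 (782) and Mertk (208). The ranges of Itgad and Treml4 overlapped, as did those of Vcam1 and Adgre1, and no other neighbours overlapped. Under the spleen label it continued with Csf1r (1577), Nr1h3 (871), Spic (296), Vcam1 (211), Cd5l (196), Adgre1 (96.9), Treml4 (89.0), Mertk (56.8) and Itgad (8.63). There Cd5l overlapped Vcam1 and Spic, and Adgre1 overlapped Treml4. Itgad thus went from the sixth place under one label to the last under the other.

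Related genes are described by list, against the 64% of all genes that passed. Of 14 further red pulp and haem-handling genes, 11 passed the test and 10 of these were higher under the lymph node label, led by Fcna (a ficolin; 5.57 ± 0.25), Slc40a1 (the iron exporter ferroportin; 5.43 ± 0.17), Fcgr4 (an IgG receptor; 4.53 ± 0.23) and Hmox1 (haem oxygenase 1; 4.11 ± 0.20), and the list median was 1.89. Of 4 genes of other spleen or lymph node macrophages, 3 passed and were lower there: Cd209b (-2.78 ± 0.26), Siglec1 (-1.52 ± 0.23) and Timd4 (-1.44 ± 0.17). Among 10 LXR targets, a list that includes Cd5l and Mertk themselves, those 2 were higher and 7 were lower, led by Scd1, a fatty acid desaturase (-4.20 ± 0.56). The list of 13 ligands and partners had 6 higher, led by Tyrobp, an adaptor of TREM receptors (1.63 ± 0.14), Il34, a second CSF1R ligand (1.44 ± 0.22), and the C1q chains C1qc (1.24 ± 0.12) and C1qb (1.23 ± 0.11). Its 3 lower genes were Gas6, a MERTK ligand (-1.27 ± 0.22), Rxra, the LXR partner (-1.05 ± 0.14), and Csf1 (-0.44 ± 0.13). Marker lists of other cells differed too: neutrophil (6 of 6), eosinophil (3 of 3), erythroid (5 of 5) and B cell (3 of 3) genes were higher under the lymph node label, and adipocyte (4 of 4), stromal and endothelial (8 of 8) and T cell (3 of 3) genes lower. Of monocyte markers 3 of 4 were higher and 1 lower, with a median of 0.42, and of dendritic cell markers 2 of 5 were higher. Their part in the differences of the 10 genes was not tested.

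**Figure D2:**
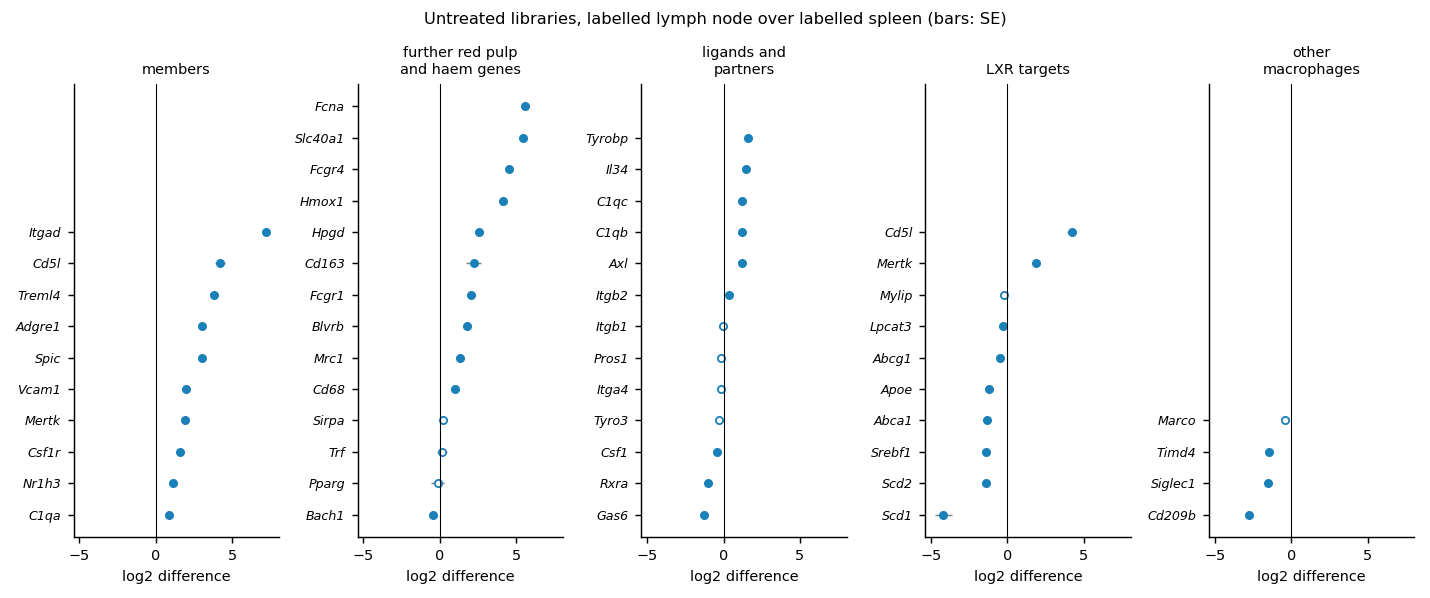
Log2 difference between untreated libraries labelled lymph node (n = 3) and labelled spleen (n = 5) for the 10 members and 4 related lists; bars are standard errors, filled points passed the limma test and open points did not. All 10 members lie to the right of 0, while 3 of 4 genes of other macrophages are filled and lie to the left.

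The comparisons with 1, 3 and 14 days of NAM share the untreated libraries of their label. After 1 day, Vcam1 rose and Treml4 fell in the libraries labelled spleen, and no other member passed the test. The 2 of 10 compare with 16.6% of 18243 genes called, 8.56% higher and 8.05% lower. Vcam1 measured 1619, 1884, 2133, 1635 and 1663 normalised counts untreated and 2762, 2324, 2760.4, 2886 and 3151 at 1 day. All 5 treated libraries lay above all 5 untreated ones. The log2 fold change was 0.64 ± 0.11 (SE; limma adjusted p = 0.00087). Treml4 measured 158, 164, 196, 152 and 179 untreated and 125, 109, 104, 111 and 108 at 1 day, with all 5 treated libraries below every untreated one, a log2 fold change of -0.60 ± 0.16 (adjusted p = 0.015). Groups that do not overlap occurred in 11.9% of genes, and edgeR and DESeq2 called the same number of members, 2. The other 8 members had log2 fold changes between -0.20 for C1qa and 0.22 for Itgad. The member median was -0.015, against 0.0054 over all genes.

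Among the related genes under the same label, Cd68, a lysosomal glycoprotein of macrophages (-0.53 ± 0.12, adjusted p = 0.0045), and Sirpa, which binds CD47 (-0.46 ± 0.13, adjusted p = 0.017), fell at 1 day, 2 of 14 genes of that list. This count and the 2 of 13 ligands and partners are near the 16.6% called over all genes. Timd4, a phosphatidylserine receptor, was the sole one of 4 other-macrophage genes to pass and fell from 8352 ± 1351 to 4881 ± 874 (SD, n = 5; log2 -0.78 ± 0.15, adjusted p = 0.0026). Pros1, a MERTK ligand, rose (0.51 ± 0.12, adjusted p = 0.0065) and Csf1 fell (-0.33 ± 0.10, adjusted p = 0.031), 2 of 13 ligands and partners. The list medians were between -0.12 for the ligands and 0.01 for the LXR targets, apart from -0.35 over the 4 other-macrophage genes. Of the LXR targets 0 of 10 passed by limma (0 also at an unadjusted p under 0.05), among them the most abundant, Apoe, at 185340.0 ± 31465 untreated and 156480.0 ± 28992 at 1 day. Stromal and endothelial markers, cells that also express Vcam1, had 0 of 8 called by limma (1 at an unadjusted p under 0.05), 0 of 8 positive values, a median of -0.23 and summed levels of 52962 to 80166 at 1 day against 62764 to 89050 untreated. Over all genes 5628 (30.9%) had an unadjusted p under 0.05. Dendritic cell markers had 0 of 5 called by limma (1 unadjusted) and summed levels of 5123 to 7103 against 5703 to 7456. Other lists also had 0 calls by limma: neutrophil markers had 6 of 6 positive values (3 unadjusted), a median of 1.54 and sums of 354 to 1261 in 4 libraries and 9118 in replicate 3, against 190.5 to 1026 untreated, adipocyte markers had 4 of 4 positive values (0 unadjusted), a median of 0.98 and sums of 52966 to 221410.0 against 17233 to 110740.0, and monocyte markers had 3 of 4 positive values (2 unadjusted), a median of 0.22 and sums of 1953 to 2480.2 against 1524 to 2335. The part of any of these cells in the values of Vcam1 and Treml4 was not tested.

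At 3 days the same direction was seen for both genes under the spleen label, with smaller or more variable values. In this comparison 5.55% of genes were called, 2.82% higher and 2.74% lower. Treml4 measured 139, 124, 66.2, 133 and 93.0, all below every untreated library (5.06% of genes did not overlap), a log2 fold change of -0.65 ± 0.16 (adjusted p = 0.025). Vcam1 measured 1866, 2502, 2314, 2835 and 2068, overlapping the untreated libraries, a log2 fold change of 0.37 ± 0.11 (adjusted p = 0.046). Replicate 1 at 3 days, the library set apart on the second component, had the lowest Vcam1 and the highest Treml4 of its group. Without it the log2 fold changes were 0.44 ± 0.10 and -0.74 ± 0.16 (adjusted p = 0.0056 and 0.0036). The Vcam1 call was lost when any of 8 other libraries was left out, and the Treml4 call when untreated replicate 5 or 3-day replicate 3 or 5 was left out (adjusted p = 0.055 to 0.082). Fitting the 2 groups alone lost both calls (adjusted p = 0.10 for Vcam1 and 0.089 for Treml4). Vcam1 was also not called without a filter on low values, with the replicate block or under the 1.5-fold rule.

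Cd68 (-0.45 ± 0.12, adjusted p = 0.030) and Timd4 (-0.60 ± 0.15, adjusted p = 0.030) were also lower at 3 days, 1 gene in each of their lists. LXR targets and ligands had 0 calls by limma (1, the member Cd5l itself, and 4 at an unadjusted p under 0.05). Over all genes 4007 (22%) had an unadjusted p under 0.05, as had 4 members, Cd5l, Treml4, Vcam1 and Nr1h3. Among dendritic cell markers, Xcr1 (-0.44 ± 0.11) and Clec9a (-0.47 ± 0.13) were lower, 2 of 5, while the other 3 had positive values that did not pass, the list median was 0.03 and the sums were 5758 to 7116 against 5703 to 7456 untreated. Stromal and endothelial markers had 0 of 8 called by limma (2 unadjusted), 0 of 8 positive values, a median of -0.25 and sums of 58046 to 69075 against 62764 to 89050.0, and neutrophil markers had 0 of 6 called (0 unadjusted), 6 of 6 positive values, a median of 0.56 and sums of 366 to 1233 against 190.5 to 1026. Treml4 can be expressed by dendritic cells, and the part of any of these cells in the values of Vcam1 and Treml4 was not tested. Cd5l had the largest negative value of the members that did not pass, -0.67 ± 0.31 (adjusted p = 0.21).

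At 14 days of NAM the members labelled spleen did not differ from untreated by the test. By limma 0 of the 10 passed, and 0 of 18243 genes (0%), and groups did not overlap for 0.548% of genes and 0 members. At an unadjusted p under 0.05 there were 510 genes (2.8%) and 3 members, Spic, Cd5l and Adgre1, and edgeR called 0 genes and DESeq2 1, which was no member. Cd5l measured 203, 191, 262, 145 and 268 against 277, 465.9, 590.2, 245 and 322 untreated, overlapping ranges with a log2 fold change of -0.78 ± 0.31 (95% interval -1.43 to -0.14, adjusted p = 1). Adgre1 was -0.31 ± 0.14 and Spic -0.25 ± 0.12. Vcam1, at 1670 ± 124, and Treml4, at 188 ± 19.3, were at -0.09 ± 0.11 and 0.15 ± 0.16. The 4 related lists had 0 calls by limma, and the 1 gene in them with an unadjusted p under 0.05 was the member Cd5l, which the LXR targets include.

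The remaining members labelled spleen are given here by group in the order untreated, 1, 3 and 14 days. Spic was 1083 ± 160 untreated (SD, n = 5), 1026 ± 168 at 1 day, 1025 ± 94.0 at 3 days and 910.3 ± 106 at 14 days, and Csf1r was 8680.5 ± 1382, 8709 ± 701 and 8024 ± 919 before reaching 7749 ± 576 at 14 days. Nr1h3 was 2089 ± 340.4, 2028 ± 391, 1735 ± 167 and 1969 ± 203, and Mertk 235 ± 24.3, 247 ± 33.8, 239 ± 29.2 and 255 ± 31.8, in the same order of days. In each of these 4 genes the treated groups overlapped the untreated one. The C1q gene C1qa, at 10026 ± 1069, 8859 ± 1987, 8715 ± 1018 and 9733 ± 1081, and Itgad, at 37.1 ± 7.27, 43.2 ± 7.16, 40.9 ± 15.8 and 45.1 ± 15.5, overlapped the untreated libraries at all times. Adgre1 was 299 ± 52.7, 331 ± 64.1, 297 ± 29.1 and 238 ± 16.3, with the tightest group at 14 days. Cd5l varied widely between replicates, at 379.99 ± 145, 368 ± 139.6, 243 ± 104 and 214 ± 51.7.

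Set directly against 1 day, 3 members differed at 14 days under the spleen label, where 10.6% of genes were called, 5.22% higher and 5.41% lower. Treml4 was higher (0.74 ± 0.16, adjusted p = 0.0070) and Vcam1 lower (-0.73 ± 0.11, adjusted p = 0.00093), with groups that did not overlap, as for 9.69% of genes. Adgre1 was also lower (-0.45 ± 0.14, adjusted p = 0.037), but its groups overlapped. That call was lost without any of 7 libraries, with adjusted p up to 0.095. It was also lost without a filter on low values, with TMM scaling, with the groups compared alone and under the 1.5-fold rule. Of the related genes, Slc40a1 (-0.57 ± 0.16) and Pros1 (-0.62 ± 0.12) were lower and Cd68 (0.42 ± 0.12) higher than at 1 day. Of monocyte markers 1 of 4 was called, Ccr2 (-0.38 ± 0.09), with 0 of 4 positive values and a median of -0.25. Over all genes 4694 (25.7%) had an unadjusted p under 0.05. Neutrophil, adipocyte and stromal and endothelial markers had 0 calls by limma (0 unadjusted in each), with 0 of 6, 0 of 4 and 7 of 8 positive values and medians of -0.71, -0.57 and 0.13. The part of these cells in the values of the 3 members was not tested.

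**Figure D3:**
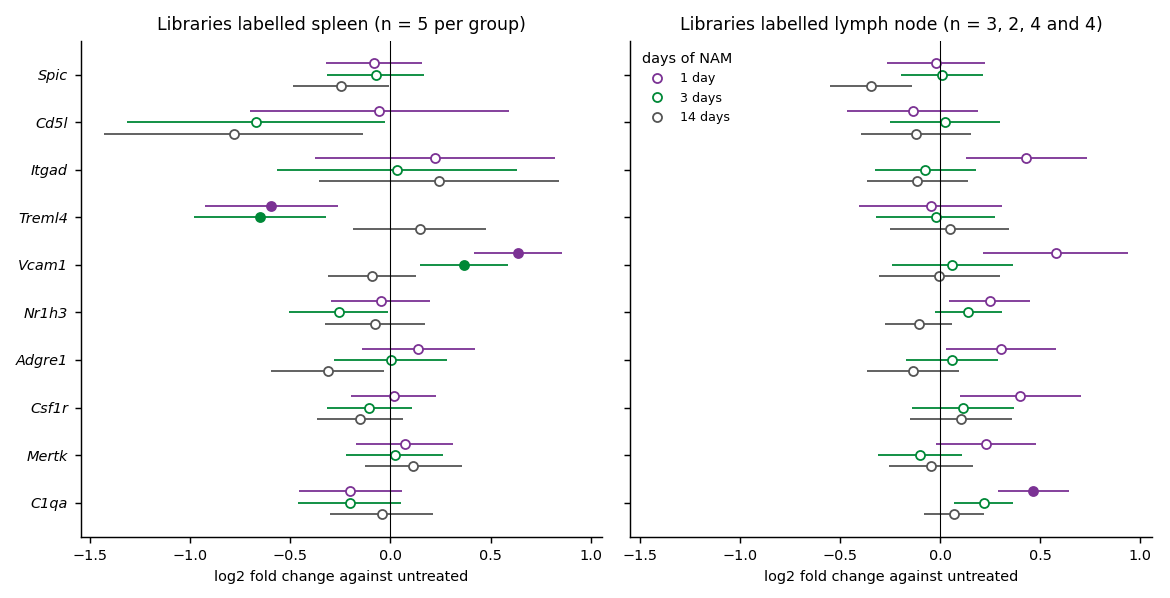
Log2 fold change against untreated libraries of the same label with its 95% interval, for each member at 1, 3 and 14 days of NAM; filled points passed the limma test with adjusted p under 0.05, and the 3 comparisons of a label share its untreated libraries. Vcam1 and Treml4 are filled at 1 and 3 days under the spleen label, C1qa at 1 day under the lymph node label, and no point is filled at 14 days.

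Under the lymph node label, C1qa rose after 1 day of NAM and was the sole member to pass, 1 of 10, against 1.21% of 18215 genes called (0.884% higher, 0.329% lower). It measured 20121.5, 19937 and 21063 normalised counts untreated and 28305 and 27897 at 1 day, a log2 fold change of 0.46 ± 0.08 (SE; adjusted p = 0.012). Both treated libraries lay above all untreated ones. The other 2 chains of C1q rose with it: C1qb from 21881 ± 534 to 29602 ± 379 (0.44 ± 0.09, adjusted p = 0.026) and C1qc from 26622 ± 397 to 36481 ± 611 (0.45 ± 0.10, adjusted p = 0.030). Apoe, a lipid carrier and LXR target, rose from 88354 ± 6236 to 148650.0 ± 2699 (0.75 ± 0.10, adjusted p = 0.0011) and was the sole one of 10 LXR targets called.

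The groups of untreated (n = 3) and 1-day (n = 2) libraries did not overlap for 7 of the 10 members, and also not for 32.6% of all genes. Besides C1qa these were Vcam1 (0.58 ± 0.17, adjusted p = 0.12), Itgad (0.43 ± 0.14, 0.16), Csf1r (0.40 ± 0.14, 0.20), Adgre1 (0.31 ± 0.13, 0.28), Nr1h3 (0.25 ± 0.10, 0.23) and Mertk (0.23 ± 0.12, 0.38), all above untreated. Spic (-0.02 ± 0.12), Treml4 (-0.05 ± 0.17) and Cd5l (-0.14 ± 0.15) were at or below 0. The member median was 0.28, against 0.00 over all genes. The further red pulp list had 0 of 14 called by limma, 7 at an unadjusted p under 0.05 and a median of 0.13. Over all genes 2726 (15%) had an unadjusted p under 0.05. So had 6 members: Itgad, Vcam1, Nr1h3, Adgre1, Csf1r and C1qa.

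The 1-day group of this label is small and holds the library with pancreas genes, replicate 1. C1qa was at 0.45 ± 0.11 without it (adjusted p = 0.074) and at 0.47 ± 0.11 without replicate 2 (0.073), where the remaining library of the arm is assumed to vary like the other groups. The value hardly moved, and neither fit passed. Leaving out untreated replicate 2 also lost it (adjusted p = 0.061), as did quantile normalisation (0.071), while fitting the 2 groups alone called Itgad, Vcam1 and Csf1r as well. Of monocyte markers 1 of 4 was called, Cd14 (0.73 ± 0.12), and 2 of 4 had negative values, with a list median of -0.09 and summed levels of the list at 4161 and 4298 against 3069 to 3492 untreated. Of stromal and endothelial markers 1 of 8 was called, Ccl21a (0.90 ± 0.17), and 3 of 8 had negative values, with a list median of 0.05 and sums of 30254 and 31799 against 22196 to 26388. Neutrophil and eosinophil markers had 0 of 6 and 0 of 3 called by limma (3 and 1 unadjusted), medians of 0.78 and 1.04, and sums of 23677 and 32910.0 against 10471 to 20300.0 and of 4632 and 5354 against 1660 to 2910. The part of these cells in the values of C1qa and Vcam1 was not tested.

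By day 3 of NAM in libraries labelled lymph node, 0 of 10 members passed by limma, where 1.24% of genes did (0.335% higher, 0.906% lower). C1qa alone had an unadjusted p under 0.05, as had 2694 genes (14.8%), and edgeR and DESeq2 called 0 members. It measured 23123, 21321, 25587 and 24939, above all untreated libraries as in 15.3% of genes not overlapping, a log2 fold change of 0.22 ± 0.07 (adjusted p = 0.16). Apoe was still higher (0.47 ± 0.08, adjusted p = 0.0087). Blvrb, which reduces the biliverdin that haem oxygenase makes, was lower (-0.38 ± 0.07, adjusted p = 0.0094). Erythroid markers were lower in 5 of 5 genes, with summed levels of 2180 to 11712 against 19068 to 30938 untreated, and neither their part nor that of other cells in the values of Blvrb, Apoe and C1qa was tested. Stromal and endothelial markers had 1 of 8 called, Ccl19 (0.50 ± 0.09), 4 of 8 positive values, a median of -0.03 and sums of 27388 to 33176 against 22196 to 26388, and monocyte markers had 1 of 4 called, Ly6c2 (0.39 ± 0.09), 2 of 4 positive values, a median of 0.04 and sums of 3356.5 to 4284.5 against 3069 to 3492.

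The 14-day libraries gave 0 of 10 members past the limma test under this label, where 0.791% of genes passed (0.11% higher, 0.681% lower). Spic, the lineage factor, was the one member with an unadjusted p under 0.05, as had 2157 genes (11.8%), and DESeq2 called 1 member, Spic (adjusted p = 0.041), while edgeR called 0. It measured 7709, 6117, 8170 and 8177 against 9908, 9758 and 8918 untreated, with 4 of 4 libraries below all untreated ones and 11.5% of genes not overlapping. The log2 fold change was -0.35 ± 0.10 (95% interval -0.55 to -0.14, limma adjusted p = 0.12). Hmox1, whose enzyme breaks down haem, was lower (-0.79 ± 0.16, adjusted p = 0.030; 43052 ± 4104 to 25367 ± 6710), as was Blvrb (-0.41 ± 0.07, adjusted p = 0.012). Erythroid marker sums were 8947 to 13431 in these 4 libraries against 19068 to 30938 untreated, with 1 of 5 genes called lower (5 unadjusted). Neutrophil sums were 8106 to 15693 against 10471 to 20300 untreated, with 2 of 6 called lower (5 unadjusted). Their part was not tested.

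Between 3 and 14 days under this label, 0 of 10 members passed by limma, where 0.011% of genes did. At an unadjusted p under 0.05 there were 3 members, Spic, Nr1h3 and C1qa, and 1064 genes (5.84%), with 0 members by edgeR and 1 (Spic) by DESeq2. Spic was at -0.36 ± 0.09 (limma adjusted p = 0.31). All 4 libraries at 14 days were below all 4 at 3 days, and groups did not overlap for 3.24% of genes. Neutrophil marker sums were 8106 to 15693 at 14 days against 13189 to 22832 at 3 days (6 of 6 genes unadjusted). Eosinophil sums were 854 to 2072 against 1946 to 4153 (2 of 3), and erythroid sums 8947 to 13431 against 2180 to 11712 (4 of 5). The part of these cells in the Spic value was not tested.

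Levels of the other members labelled lymph node were, in the order untreated (n = 3), 1 day (n = 2), 3 days (n = 4) and 14 days (n = 4), highest at 1 day for 6 genes besides C1qa. Csf1r was 27695 ± 285 (SD), 36582.5 ± 1681, 30114.5 ± 3709 and 30189 ± 6051, Vcam1 7656 ± 299, 11598.5 ± 2870.4, 8058 ± 1224 and 7732 ± 1440, and Itgad 6005 ± 434, 8079.8 ± 431, 5742 ± 814 and 5600.5 ± 974.8. The 2 Vcam1 libraries at 1 day stood far apart, at 9569 and 13628. Nr1h3 was 5043 ± 139, 5982 ± 106, 5579 ± 547 and 4696 ± 428, Adgre1 2664 ± 180, 3306 ± 477, 2794 ± 386 and 2438 ± 282, and Mertk 950.6 ± 62.0, 1117 ± 145, 886 ± 56.9 and 924 ± 121. Cd5l, at 7321 ± 814, 6676 ± 1030.4, 7436 ± 658 and 6811 ± 1282, and Treml4, at 2643 ± 157, 2556 ± 35.8, 2616 ± 346 and 2788 ± 684, had no such maximum at 1 day. Treml4, which fell under the spleen label at 1 and 3 days, was at log2 fold changes of -0.05 ± 0.17 and -0.02 ± 0.14 here.

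**Figure D4:**
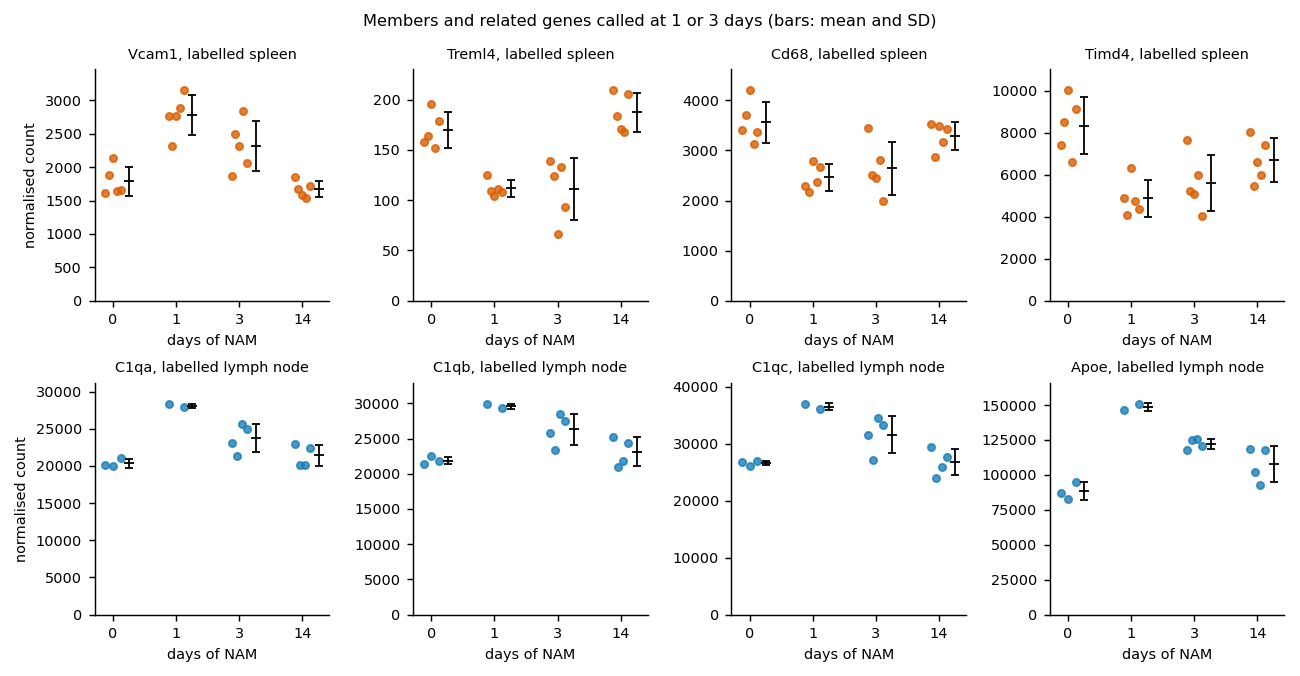
Normalised counts per library by days of NAM for Vcam1, Treml4, Cd68 and Timd4 under the spleen label (top) and C1qa, C1qb, C1qc and Apoe under the lymph node label (bottom); points are libraries and bars the mean and SD, on axes that start at 0. Vcam1 is highest and Treml4, Cd68 and Timd4 low at 1 day, and the 4 genes of the bottom row are highest at 1 day.

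The change with NAM was compared between the labels as an interaction in 1 fit of the 33 libraries. It passed for 0 members by limma at 1, 3 and 14 days, where 1.46%, 0.63% and 0.124% of 18581 genes did (at 1 day 0.866% with the more positive change under the lymph node label and 0.597% under the spleen label). At an unadjusted p under 0.05 there were 3024, 2350.0 and 925 genes and 3, 3 and 0 members, edgeR called 0 members each time, and DESeq2 called 1, 0 and 0. C1qa at 1 day came closest, with a change larger under the lymph node label by 0.68 ± 0.19 on the log2 scale (95% interval 0.30 to 1.06, adjusted p = 0.055). Treml4 fell under the spleen label alone by the test, and its difference was 0.57 ± 0.26 at 1 day and 0.64 ± 0.23 at 3 days (adjusted p = 0.27 and 0.20). Vcam1 had like values at 1 day under both labels, 0.64 and 0.58, and a difference of -0.04 ± 0.21 (95% interval -0.47 to 0.39).

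Correlations between the 10 genes are given for each label, beside those of all pairs of tested genes, and the labels were not tested against each other. Over the 13 libraries labelled lymph node, Pearson correlations of log2 values were positive in 45 of 45 pairs, with a median of 0.64 and a maximum of 0.90 for Itgad and Vcam1, while 49.8% of all gene pairs were positive, with a median of 0.00. Over the 20 labelled spleen, 29 of 45 were positive, with a median of 0.19 and a range from -0.63 for Treml4 and Vcam1 to 0.65 for Cd5l and Csf1r, while 49.5% of all gene pairs were positive, with a median of 0.00. Within groups the Treml4 and Vcam1 value was 0.24. These are descriptions, since libraries share groups, depth and cell makeup.

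The genes most like each member were looked up among all tested genes. C1qb was most like C1qa under both labels (r = 0.94 over 20 libraries labelled spleen and 0.97 over 13 labelled lymph node). Under the spleen label Vcam1 was most like Ifngr1 (0.96), Treml4 like Zhx2 (0.91), Csf1r like Axl (0.91), Cd5l like Myo1f (0.84), Spic like Aqp3 (0.83), Adgre1 like Mrc1 (0.83), Itgad like Fbxl6 (0.82), Nr1h3 like Nomo1 (0.82) and Mertk like Rhobtb1 (0.77). Under the lymph node label Vcam1 was most like Kcnj16 (0.97), Itgad like Glul (0.96), Csf1r like Nfe2l2 (0.94), Adgre1 like Aoah (0.93), Spic like Acoxl (0.92), Nr1h3 like C1qc (0.91), Mertk like Gdpd1 (0.90), Treml4 like Trem3 (0.90) and Cd5l like Fkbp14 (0.84). No member but C1qa kept the same nearest gene under both labels.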

How the data were processed

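The authors deposited 1 table with a row per gene and a column per library, whose signal is the read count over a DESeq2 size factor, not log-transformed. Per the labels, poly-A libraries were made with a TruSeq kit and sequenced in paired-end mode, and the processing notes name STAR 2.4.0, FastQC, Picard, SAMtools and DESeq2 with the mm10 build, and a GenoSplice annotation 2016_1. The counting is not given in the sources used here for this set, nor is strand use.

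The 10 genes and the lists were chosen with earlier results of these data known. Groups and replicate numbers came from the titles, and columns were matched by the sample description; columns left unmapped numbered 0. Whole reads were recovered from the spacing of low values: 100% of values above 0 came out whole in each library (tolerance 0.1). The libraries of each label had been scaled apart (ratio of deposited to recomputed size factors 0.999885 to 1.00015 and 1.02895 to 1.03944), so values across labels used 1 median-of-ratios scaling of the recovered reads of all 33 libraries. Among 56 replicate pairs 0 were identical, and the lowest chi-square per degree of freedom was 8.93.

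For the tests, 1 was added to each normalised count, log2 was taken, and limma 3.58.1 (R 4.3.3) was run with trend, all groups of a label (or of both labels) in 1 fit, two-sided, adjusted by Benjamini-Hochberg over all genes with a mean of at least 10 (18243, 18215 and 18581), at a threshold of 0.05. The pseudocount understates changes of low genes. Depth was 18325061 to 54830743 reads per library. Named genes were the members, up to 4 genes past the threshold from each list and comparison, largest change first (else the most abundant), and the gene most correlated with each member. Alternatives covered pseudocounts of 0.1 and 5, filters, scaling, fits of the groups alone, weighting of libraries, a block for replicate number, leaving out each replicate in turn, an unadjusted p with a 1.5-fold rule, and edgeR 4.0.16 and DESeq2 1.42.0 on recovered reads. The scripts were tested on simulated data with 200 genes changed 2-fold in each treated group. They recovered 66.5% to 76.5% of these genes, and 3.9% to 8.9% of the calls were false. Numpy 2.4.6, pandas 2.3.3 and Python 3.11.15 were used.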

Additional observations from a re-analysis of the deposited data

Results flagged for a closer look

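Among 60 sets of member values in groups of 4 or 5 libraries, 3 held a library far from the others. This is about the share that chance gives, 1 in 20. Both genes concerned are from libraries labelled spleen. In the 14-day group Itgad reached 72.72 normalised counts in replicate 3, where the remaining 4 libraries had 36.05 to 40.2. At 1 day it was 55.75 in replicate 2, against 38.41 to 41.63. Nr1h3 was 2708 in that same replicate 2, against 1737 to 1973, and this library also held the highest adipocyte marker sum of its group, 221410.0 normalised counts against 52966 to 118810.0. The part of these cells in the Nr1h3 value was not tested.

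The interaction term called 3 genes of the pathway lists, each with a more positive change under the lymph node label. At 1 day the differences in log2 fold change were 0.71 for C1qb (adjusted p = 0.033), 1.02 for Apoe (0.018) and 1.35 for Timd4 (0.0077), and at 3 days 1.00 for Timd4 (0.036). Timd4 fell under the spleen label at both times, while its values under the lymph node label, 0.56 ± 0.15 and 0.39 ± 0.13, did not pass the limma test. The 1-day values rest on 2 libraries labelled lymph node.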

How the results depend on the processing

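Of 2676 member values under alternative settings, 2623 kept their side of the threshold, 32 lost a call, 21 gained one and 0 reversed a call, and 114 values that were not called changed sign. The 2 calls of 1 day under the spleen label (2 under every setting) and the 10 calls between untreated labels (10 under every setting) held throughout, as did the 0 calls at 3 days under the lymph node label and for the interaction at 14 days. At 14 against 1 day under the spleen label, 2 to 4 members were called. The 2 calls at 3 days under the spleen label became 1 without a filter, 0 with the groups compared alone, 1 with the replicate block, 3 with library weights (Nr1h3 gained, -0.25, adjusted p = 0.037) and 0 to 2 with each replicate left out, and the 1.5-fold rule called 2, Treml4 and Cd5l, without Vcam1. At 14 days under that label the 1.5-fold rule called 1. Under the lymph node label, the 1 call of 1 day became 0 with quantile normalisation or the 1.5-fold rule, 4 with the groups alone and 0 to 1 with each replicate left out. There DESeq2 called 1 member at 14 days against untreated and 1 against 3 days, where limma called 0. For the interaction at 1 day, a mean of at least 50, library weights, the replicate block, DESeq2 and the 1.5-fold rule each called 1, and leaving out replicates 0 to 1. At 3 days library weights called 3 and the 1.5-fold rule 1. The cause was not tested, except that the groups alone and the left-out replicates use fewer libraries. Itgad gave no value with a mean of at least 50 under the spleen label.

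Replicate numbers showed no common pairing between the groups of a label. Under the spleen label, deviations of same-numbered libraries correlated at -0.496 to 0.468 (30 pairs, median 0.0355), against a median of -0.00788 for other pairs. Under the lymph node label they correlated at -0.107 to 0.0789 (16 pairs, median -0.013), against 0.00671. Libraries of different labels were not compared in this way, so pairing of organs from 1 mouse was not examined. The replicate block moved calls over all genes by over 1.5 times at 1 day under the lymph node label (221 to 132), at 14 against 3 days (2 to 4) and for the interaction at 14 days (23 to 10).

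Counts over all genes moved by over 1.5 times as follows. Under the spleen label the 3030 calls at 1 day became 1497 with the 1.5-fold rule. The 1013 at 3 days became 572 without a filter, 145 with the groups alone, 4722 with library weights, 1714 with DESeq2, 620 with the 1.5-fold rule and 159 to 2783 without single replicates. The 0 at 14 days became 1 without a filter, 1 with DESeq2 and 204 with the 1.5-fold rule, and the 1940 at 14 against 1 day became 943 with that rule and 1214 without the 14-day replicate 1. For libraries labelled lymph node the 221 at 1 day became 139 without a filter, 553 with DESeq2, 894 with the 1.5-fold rule and 66 to 125 without single replicates. The 226 at 3 days became 557 (weights), 511 (DESeq2), 615 (1.5-fold rule) and at lowest 84 without a replicate, and the 144 at 14 days 278, 381, 630 and 31. The 2 at 14 against 3 days became 1 (no filter), 7 (groups alone), 1 (edgeR), 54 (DESeq2), 278 (1.5-fold rule) and 0 to 9 without single replicates. For the interaction, the 272 at 1 day became 176 (no filter), 134 (groups alone), 807 (weights), 687 (DESeq2), 1258 (1.5-fold rule) and 64 to 411, the 117 at 3 days 74 (groups alone), 1825 (weights), 337 (DESeq2), 743 (1.5-fold rule) and 41 to 837, and the 23 at 14 days 4 (groups alone), 47 (DESeq2), 525 (1.5-fold rule) and at lowest 5 without a replicate.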
